A study of Mus musculus with 12 samples.

Results

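The genes described here encode 9 enzymes that make serine and pass its one-carbon units to folate. They are Phgdh, Psat1 and Psph of serine synthesis, Shmt1 and Shmt2, which move the carbon from serine to tetrahydrofolate, and Mthfd1, Mthfd1l, Mthfd2 and Aldh1l2 of the folate cycle. They were taken by gene symbol from a table of read counts with 24421 gene rows. Each symbol had 1 row, and all 9 were among the 15281 genes that passed the filter on low counts and were tested. RNA was measured in 12 samples of E14 cells, a line of mouse embryonic stem cells, with 3 samples in each of 4 groups. The groups were Mettl3-knockout cells paused with INK128 (KO paused), Mettl3-knockout cells in control medium (KO FBS), wild-type cells paused with INK128 (WT paused) and wild-type cells in control medium (WT FBS). Mettl3 is the catalytic subunit of the writer of N6-methyladenosine (m6A), a mark of messenger RNA. INK128, which blocks the kinase mTOR, was given at 200 nM for 2 weeks, and control cells were kept in FBS and LIF over the same 2 weeks. The labels give neither the edited part of Mettl3 nor the number of knockout clones, and they do not say that samples of a group came from separate cultures, so the p-values measure only the spread between these samples.

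Serine is made from a glycolytic intermediate by Phgdh, Psat1 and Psph, acting in that order. Its side-chain carbon enters folate in mitochondria through Shmt2 and leaves as formate through Mthfd2 and Mthfd1l, and in the cytosol Mthfd1 turns formate back into folate-bound carbon for purines, thymidylate and methionine. In proliferating cells the mitochondrial branch is known as the main source of formate, and genes for serine synthesis and for Mthfd2 are known targets of the transcription factor Atf4, which acts downstream of mTOR.

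The serine synthesis genes and Mthfd2 moved together between the groups, so the 250 bases before their RefSeq transcription start are shown, beside those of Shmt1 and Mthfd1, which on a scale relative to all other genes passed the test for pausing in neither genotype. Sequences are from RefSeq on GRCm38.p6 and read 5′ to 3′ along the gene. Capitals mark CCAAT or its reverse complement ATTGG, the box bound by the factor NF-Y.
Phgdh (chr3:98339970-98340219, minus strand): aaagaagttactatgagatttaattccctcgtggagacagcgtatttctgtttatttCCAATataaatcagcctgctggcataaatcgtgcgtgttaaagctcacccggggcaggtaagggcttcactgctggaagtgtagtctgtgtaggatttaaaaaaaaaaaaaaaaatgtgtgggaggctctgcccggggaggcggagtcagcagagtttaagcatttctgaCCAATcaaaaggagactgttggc
Psat1 (chr19:15925060-15925309, minus strand): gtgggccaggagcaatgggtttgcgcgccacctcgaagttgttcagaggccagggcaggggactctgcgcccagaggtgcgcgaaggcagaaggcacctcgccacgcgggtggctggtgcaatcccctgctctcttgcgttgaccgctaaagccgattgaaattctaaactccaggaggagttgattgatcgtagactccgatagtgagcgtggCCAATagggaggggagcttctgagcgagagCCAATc
Psph (chr5:129787254-129787503, minus strand): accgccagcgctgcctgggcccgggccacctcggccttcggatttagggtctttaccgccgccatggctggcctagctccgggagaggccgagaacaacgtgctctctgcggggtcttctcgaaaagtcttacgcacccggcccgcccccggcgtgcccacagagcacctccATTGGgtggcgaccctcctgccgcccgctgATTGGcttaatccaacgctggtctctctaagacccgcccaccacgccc
Mthfd2 (chr6:83317605-83317854, minus strand): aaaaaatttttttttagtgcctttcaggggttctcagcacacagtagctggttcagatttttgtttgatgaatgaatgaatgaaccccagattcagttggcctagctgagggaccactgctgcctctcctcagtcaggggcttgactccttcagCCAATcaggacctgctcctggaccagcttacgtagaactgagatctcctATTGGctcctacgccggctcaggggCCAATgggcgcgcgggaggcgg
Shmt1 (chr11:60811266-60811515, minus strand): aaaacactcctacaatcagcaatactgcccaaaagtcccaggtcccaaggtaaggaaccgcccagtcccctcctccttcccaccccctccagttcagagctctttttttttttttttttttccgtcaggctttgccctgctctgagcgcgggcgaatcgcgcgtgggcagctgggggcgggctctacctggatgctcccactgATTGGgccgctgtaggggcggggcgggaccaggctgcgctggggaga
Mthfd1 (chr12:76254982-76255231, plus strand): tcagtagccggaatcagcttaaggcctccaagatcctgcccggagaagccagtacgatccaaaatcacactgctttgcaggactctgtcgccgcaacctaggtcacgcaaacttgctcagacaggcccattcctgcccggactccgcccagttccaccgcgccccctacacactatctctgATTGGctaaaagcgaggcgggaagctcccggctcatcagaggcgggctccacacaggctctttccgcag
CCAAT was searched on both strands and was found in 6 of the 8 enzymes with a RefSeq promoter, the 6 shown. It was not found in Shmt2 or Mthfd1l, which also fell in WT paused cells on the relative scale. It was present in 33.8% of 32851 mouse promoters of the same length. That share counts promoters, whereas the 6 of 8 counts enzymes, with Psat1 counted by the start shown. Mthfd2 held 3 copies, Phgdh, Psat1 and Psph held 2 each, and Shmt1 and Mthfd1 held 1 each. How many of all promoters held more than 1 copy was not counted, and a link of copies to pausing was not tested. Another RefSeq start of Psat1, farther downstream, held 0 copies in its 250 bases. None of the 8 held TGATGNAA, a spelling of the composite element bound by Atf4, which 3.45% of all promoters held. The box TGACGTCA was likewise in none of them and in 1.55% of all promoters, and CACGTG was in none of them and in 6.02%. The absence of letters from this window says nothing of the factor. The RefSeq starts of Psat1 and Mthfd2 lie 22278 and 8304 bases inside the spans that GENCODE annotates. Aldh1l2 was not matched.

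Libraries held 10615548 to 39566713 counts. Mettl3 itself stood at 30.1 ± 1.31 CPM (counts scaled to library size) in KO paused, 27.2 ± 1.61 in KO FBS cells, 35.9 ± 2.85 in WT paused cells and 33.9 ± 3.17 in WT FBS cells (SD, n = 3 each). A count over the whole gene checks the genotype labels only weakly. CPM here are scaled by TMM, a factor that sets the typical gene equal between libraries, so this relative scale measures a gene against all others. A second scale divides by the reads of ERCC RNA, synthetic molecules added to the RNA of 200000 cells per sample. Gene reads per ERCC read were 38.3 ± 1.89 in KO paused, 68.5 ± 23.3 in KO FBS cells, 33.0 ± 4.19 in WT paused cells and 73.4 ± 1.15 in WT FBS cells. Summed ES cell markers (8 genes, none at 0) stood at 2585 to 2832 CPM in KO paused, 1846 to 2163 in KO FBS cells, 4836 to 5241 in WT paused cells and 3643 to 4570 in WT FBS cells. Extraembryonic endoderm markers (9 genes) summed to 185 to 191 CPM in KO paused, 137 to 157 in KO FBS cells, 34.4 to 53.8 in WT paused cells and 111 to 166 in WT FBS cells. Trophoblast markers (8 genes) summed to 55.9 to 63.9 CPM in KO paused, 193 to 249 in KO FBS cells, 32.2 to 48.2 in WT paused cells and 47.1 to 74.1 in WT FBS cells. Neural markers (5 genes, Six3 at 0 in WT paused cells) summed to 189.6 to 217 CPM in KO paused, 100.2 to 124 in KO FBS cells, 166 to 222 in WT paused cells and 60.7 to 129 in WT FBS cells. Fibroblast markers (8 genes) summed to at most 20.5 CPM in any library, with Lum at 0 in both WT groups and Postn at 0 in WT paused cells. A sum follows the most abundant genes of its list, and other genes of the list can move against it. On the relative scale the median log2 change of the endoderm markers with pausing was −1.02 in KO and −2.57 in WT cells. Between KO FBS and WT FBS cells it was −1.47. The neural markers had a median change with pausing of 1.39 in KO and −0.07 in WT cells. The part of all these markers in the results below was not tested. In bulk RNA fewer cells of a type and less RNA per cell cannot be told apart.

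Replicate 1 stood apart from the others in every group, with a chi-square per degree of freedom of 47.0 to 154 between its counts and those of replicates 2 and 3, against 5.13 to 21.5 between these. At the 9 enzymes the WT FBS libraries spread most, and this bears on every comparison that includes them. WT FBS replicate 1, at 12027770 counts the shallowest of the 3, was the lowest of the group for all 9 enzymes, and replicate 3 was the highest for 8 of 9. The highest WT FBS library exceeded the lowest 4.32-fold for Mthfd2, 3.21-fold for Psph and 2.81-fold for Aldh1l2, against a median of 1.38-fold over all tested genes. In KO FBS cells replicate 1 was likewise the lowest for 7 of 9 enzymes and replicate 3 the highest for 7 of 9, but in the other groups no enzyme spread more than 1.58-fold.

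**Figure D1:**
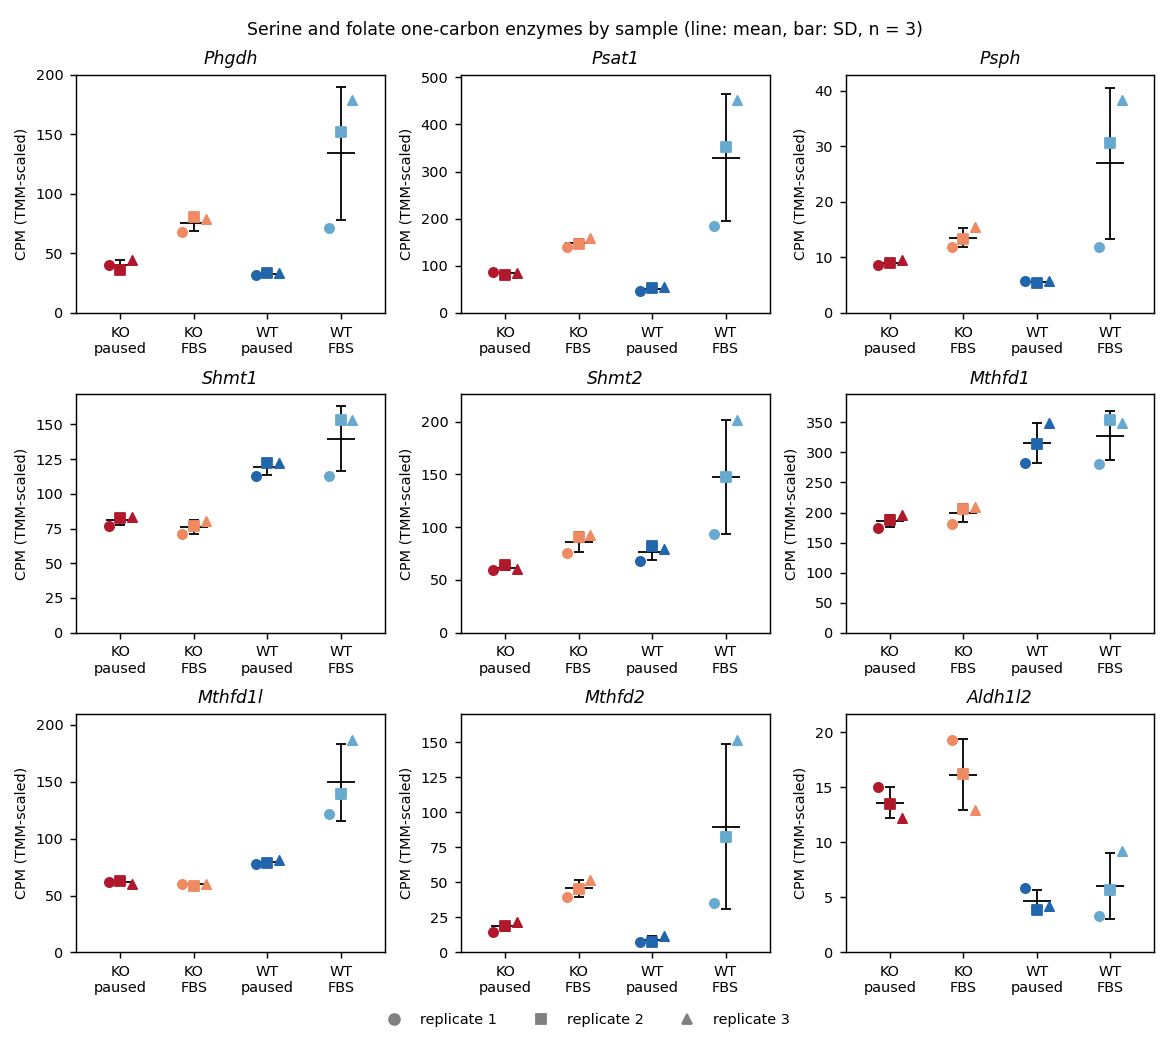
Level of each enzyme in every library, in TMM-scaled CPM on linear axes that start at 0, with KO paused, KO FBS, WT paused and WT FBS from left to right. Points are libraries, horizontal lines are means and bars are SD (n = 3). The WT FBS libraries spread most, and Aldh1l2 is the gene with both KO groups above both WT groups.

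Pausing lowered the serine synthesis genes and Mthfd2 in WT cells, and lowered Phgdh, Psat1 and Mthfd2 in KO cells by less. On the relative scale 6 of the 9 enzymes fell in WT paused cells and the other 3 did not pass the test, where 20.2% of all tested genes were called lower (edgeR quasi-likelihood test, Benjamini-Hochberg adjusted p under 0.05 over all tested genes, here and below). Their median log2 change was −0.95, beside −0.02 over all tested genes. In KO paused cells 3 of the 9 fell and 6 did not pass, where 19.4% of all genes were called lower, with a median of −0.49 beside 0.03. The difference of both effects, pausing in KO minus pausing in WT, was called for 5 enzymes, all positive, where 9.61% of all genes were called positive, and its median was 0.96 beside 0.09. Without WT FBS replicate 1 the counts were 8 lower in WT (31.1% of all genes lower), 5 lower in KO (29.9%) and 7 positive differences (24.3%).

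Phgdh (chr3:98313170-98339990, minus strand) encodes the dehydrogenase that opens serine synthesis. It stood at 40.0, 36.2 and 44.4 CPM in the 3 KO paused libraries, against 67.7, 80.1 and 78.8 in KO FBS. In WT paused libraries it was at 31.4, 33.6 and 33.2 CPM, against 71.5, 152 and 179 in WT FBS. No paused library reached any FBS library of its genotype. The log2 change with pausing was −0.91 ± 0.24 in KO cells (SE, edgeR adjusted p = 0.00892) and −2.04 ± 0.25 in WT cells (adjusted p = 0.000109). The difference of 1.13 ± 0.34 passed narrowly (edgeR adjusted p = 0.0386). It no longer passed when any 1 library other than WT FBS replicate 1 was left out, with adjusted p of 0.0594 to 0.0920 and a value of 0.87 without WT FBS replicate 3.

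Psat1 (chr19:15904678-15947337, minus strand), the transaminase of the next step, was the serine synthesis gene with the largest change in WT cells. Its levels were 86.0, 81.0 and 85.5 CPM in KO paused libraries, against 139, 145 and 159 in KO FBS. WT paused libraries held 47.1, 52.3 and 55.6 CPM, against 185, 352 and 452 in WT FBS. All KO paused libraries thus lay above all WT paused libraries, while all KO FBS libraries lay below all WT FBS libraries. Pausing lowered Psat1 by a log2 change of −0.81 ± 0.23 in KO (edgeR adjusted p = 0.0122) and −2.67 ± 0.24 in WT cells (adjusted p = 1.22e-05). The difference of 1.86 ± 0.32 (edgeR adjusted p = 0.0023) was called whichever library was left out, as were those of Psph and Mthfd1l below.

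Psph (chr5:129765558-129787449, minus strand) encodes the phosphatase that releases free serine and was the least abundant of the serine synthesis genes. KO paused libraries held 8.57, 9.07 and 9.48 CPM, against 11.9, 13.3 and 15.4 in KO FBS. In WT paused libraries it was at 5.74, 5.31 and 5.69 CPM, against 11.9, 30.6 and 38.3 in WT FBS. The KO groups did not overlap, but the change of −0.58 ± 0.29 did not pass (edgeR adjusted p = 0.126). It did without WT FBS replicate 1 (−0.61, edgeR adjusted p = 8.41e-05). That library can enter through the spread shared by all groups, the filter, the scaling and the adjustment of p, which were not tested apart. In WT cells Psph fell by 2.29 on the log2 scale (SE 0.32, edgeR adjusted p = 0.000237), and the difference was 1.71 ± 0.43 (adjusted p = 0.0171).

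The Shmt enzymes split serine into glycine and a folate-bound carbon. On the relative scale Shmt2 fell in WT paused cells, and Shmt1 passed for pausing in neither genotype. Shmt2 (chr10:127517123-127522444, minus strand), the mitochondrial form, stood at 59.6, 64.3 and 60.7 CPM in KO paused libraries, against 75.2, 91.1 and 92.3 in KO FBS. WT paused libraries held 67.6, 81.9 and 79.4 CPM, against 93.4, 147 and 202 in WT FBS. Both pausing comparisons were free of overlap, yet only that in WT cells passed (−0.95 ± 0.21, edgeR adjusted p = 0.00378). In KO cells the log2 change was −0.49 ± 0.20 (edgeR adjusted p = 0.0734), and it passed without WT FBS replicate 1 (−0.51, adjusted p = 0.00146) or replicate 3 (−0.49, adjusted p = 0.0219). The difference of 0.47 ± 0.29 was not called (edgeR adjusted p = 0.294), except without WT FBS replicate 1 (0.69, adjusted p = 0.00533).

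Shmt1 (chr11:60788104-60811718, minus strand), the cytosolic form, was at 77.0, 82.4 and 83.2 CPM in KO paused libraries, against 71.1, 76.6 and 80.6 in KO FBS. In WT paused libraries it held 113, 122 and 122 CPM, against 113, 153 and 153 in WT FBS. Paused and FBS libraries overlapped in both genotypes. The log2 changes were 0.09 ± 0.11 in KO (edgeR adjusted p = 0.551) and −0.23 ± 0.11 in WT cells (adjusted p = 0.116). Without WT FBS replicate 1 the WT change (−0.38, edgeR adjusted p = 8.26e-05) and the difference (0.44, adjusted p = 0.000832) both passed.

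In the folate cycle the mitochondrial dehydrogenase gene Mthfd2 (chr6:83305691-83325908, minus strand) had the steepest change of the 9 enzymes in both genotypes. It stood at 14.9, 18.9 and 21.8 CPM in KO paused libraries, against 39.5, 45.6 and 51.9 in KO FBS. WT paused libraries held 7.69, 7.54 and 11.9 CPM, against 35.2, 82.3 and 152 in WT FBS. No paused library reached an FBS library, and KO paused libraries all lay above WT paused ones. The log2 change with pausing was −1.30 ± 0.38 in KO cells (edgeR adjusted p = 0.0161), and this no longer passed when KO paused replicate 1 (−1.16, adjusted p = 0.0645) or KO FBS replicate 3 (−1.20, adjusted p = 0.0533) was left out. In WT cells it was −3.29 ± 0.42 (edgeR adjusted p = 0.00015), a 9.75-fold decrease, and −2.68 without WT FBS replicate 3. The difference of 1.99 ± 0.56 passed (edgeR adjusted p = 0.0275). It was 1.38 without WT FBS replicate 3, and the call was lost without any 1 of WT paused replicates 1 and 2, KO paused replicates 2 and 3 and KO FBS replicates 1 and 2 (1.85 to 1.99, adjusted p = 0.0573 to 0.0703).

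Mthfd1l (chr10:3973118-4167081, plus strand), whose enzyme releases formate in mitochondria, changed in WT cells and not detectably in KO cells. KO paused libraries held 62.1, 62.6 and 59.8 CPM, against 60.1, 58.5 and 60.5 in KO FBS. In WT paused libraries it was at 77.8, 78.9 and 81.0 CPM, against 122, 139 and 187 in WT FBS. The 6 KO libraries lay within a few CPM of each other and below all WT libraries. The log2 change was 0.04 ± 0.12 in KO (edgeR adjusted p = 0.806) and −0.92 ± 0.13 in WT cells (adjusted p = 0.000213), and the difference of 0.96 ± 0.18 passed (adjusted p = 0.00327).

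Neither Mthfd1, the cytosolic enzyme that binds formate to folate, nor Aldh1l2, a mitochondrial enzyme that oxidises formyl-folate to carbon dioxide, passed for pausing in either genotype on the relative scale. Mthfd1 (chr12:76255298-76319803, plus strand) stood at 174, 187 and 195 CPM in KO paused libraries, against 181, 206 and 209.7 in KO FBS. WT paused libraries held 283, 315 and 349 CPM, against 280.5, 354 and 348 in WT FBS. Its log2 changes were −0.10 ± 0.11 in KO (edgeR adjusted p = 0.491) and −0.05 ± 0.11 in WT cells (adjusted p = 0.726). Aldh1l2 (chr10:83487450-83534140, minus strand) was at 15.03, 13.5 and 12.2 CPM in KO paused libraries, against 19.3, 16.2 and 12.9 in KO FBS. In WT paused libraries it held 5.84, 3.82 and 4.25 CPM, against 3.27, 5.67 and 9.21 in WT FBS. Paused and FBS libraries of both genes overlapped in each genotype. The changes of Aldh1l2 were −0.25 ± 0.26 in KO (edgeR adjusted p = 0.462) and −0.46 ± 0.30 in WT cells (adjusted p = 0.252), where it passed without WT FBS replicate 1 (−0.71, adjusted p = 0.0239) and was at −0.04 without replicate 3. Genes on the opposite strand overlap Aldh1l2 (D10Wsu102e), Psph (Cct6a), Shmt2 (Ndufa4l2) and Shmt1 (Smcr8). Whether the counting used strand is not given in the sources used here, and some reads of these pairs may be counted for either gene.

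**Figure D2:**
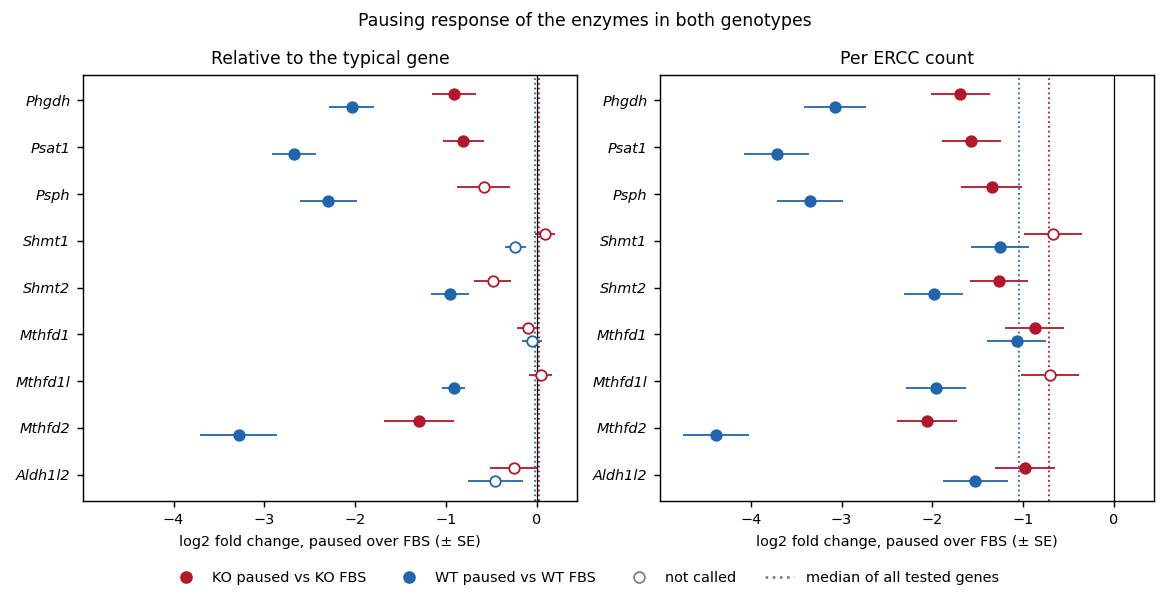
Log2 fold change of paused over FBS cells (x axis, points with SE bars) for each enzyme in KO (red) and WT cells (blue), relative to the typical gene on the left and per ERCC count on the right. Filled points passed the test, and dotted lines mark the median of all tested genes. All enzymes but Mthfd1 lie lower in WT than in KO cells on both scales. The difference passed on both scales for Phgdh, Psat1, Psph and Mthfd2.

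Per ERCC count the typical gene itself fell with pausing, by 0.72 in KO and 1.05 in WT cells on the log2 scale. On this scale 7 of the 9 enzymes fell in KO paused cells (45.7% of all genes lower) and all 9 in WT paused cells (68.8% of all genes lower). Mthfd2 changed by −2.06 ± 0.33 in KO (edgeR adjusted p = 1.48e-08) and by −4.38 ± 0.37 in WT cells (adjusted p = 1.32e-28). The change of Mthfd1, −0.87 ± 0.32 in KO and −1.07 ± 0.33 in WT cells, was close to that of the typical gene, as were Shmt1 (−0.67 ± 0.32) and Mthfd1l (−0.71 ± 0.32) in KO cells, which did not pass (edgeR adjusted p = 0.0662 and 0.0537). The KO calls of Mthfd1 and Aldh1l2 (−0.98 ± 0.33) were each lost without KO paused replicate 1 or 3 or KO FBS replicate 2, and that of Mthfd1 also without KO FBS replicate 3, with −0.56 and −0.67 without KO FBS replicate 2. Leaving out KO FBS replicate 1 gave both Shmt1 and Mthfd1l a value of −0.92 that passed, and Mthfd1l also passed without WT paused replicate 1 or WT FBS replicate 1 (−0.71 each). The difference of both pausing effects was called for 4 enzymes (3.04% of all genes positive), with Phgdh at 1.39 ± 0.45, Psat1 at 2.14 ± 0.46, Psph at 2.00 ± 0.48 and Mthfd2 at 2.32 ± 0.46, beside 0.37 for the typical gene. Of these Phgdh (edgeR adjusted p = 0.0464) lost the call when any 1 library other than WT FBS replicate 1 or KO FBS replicate 2 was left out (adjusted p = 0.0643 to 0.381). Psph and Mthfd2 were lost without WT FBS replicate 3 (1.53, edgeR adjusted p = 0.0851, and 1.56, adjusted p = 0.0596), and Mthfd1l, at 1.26 ± 0.45, passed without WT FBS replicate 1 (1.41) or KO FBS replicate 2 (1.52).

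In control medium KO cells had a lower RNA level of 8 enzymes and a higher level of 1, relative to the typical gene. Fewer passed per ERCC count, as given below. On the relative scale 8 of 9 were called lower in KO FBS than in WT FBS cells, where 29.4% of all genes were lower, and Aldh1l2 was called higher, where 28.4% were higher. The median of the enzymes was −0.88, beside −0.04 over all genes. This comparison shares the WT FBS libraries with the pausing comparison in WT cells. Mthfd1l had the largest decrease, at 59.7 ± 1.07 CPM in KO FBS and 149 ± 33.6 CPM in WT FBS cells (SD, n = 3 each; log2 −1.32 ± 0.13, edgeR adjusted p = 2.57e-06). Aldh1l2 averaged 16.2 ± 3.21 CPM in KO FBS and 6.05 ± 2.98 CPM in WT FBS cells (log2 1.36 ± 0.27, edgeR adjusted p = 0.00099), with all KO libraries above all WT libraries. Psat1 (−1.16 ± 0.23), Shmt1 (−0.88 ± 0.11), Shmt2 (−0.78 ± 0.20) and Mthfd1 (−0.72 ± 0.11) also fell with no overlap between the groups. For Phgdh (−0.83 ± 0.24), Psph (−1.02 ± 0.29) and Mthfd2 (−0.98 ± 0.37) the groups overlapped, and WT FBS replicate 1 lay within or below the range of the KO FBS libraries. Without WT FBS replicate 3 these were at −0.57, −0.69 and −0.38 and did not pass (edgeR adjusted p = 0.0507, 0.0506 and 0.299). Mthfd2 was also lost without any 1 of the KO FBS replicates or KO paused replicate 2 (adjusted p = 0.0507 to 0.113).

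Per ERCC count 4 enzymes were lower in KO FBS cells (9.81% of all genes lower) and Aldh1l2 was higher (19.1% higher). The lower ones were Psat1 (−1.08 ± 0.32), Psph (−0.91 ± 0.33), Mthfd1l (−1.24 ± 0.32) and Mthfd2 (−0.91 ± 0.32), with edgeR adjusted p of 0.000758 to 0.0231. The KO FBS libraries differed in gene reads per ERCC read, at 47.4 in replicate 1, 93.5 in replicate 2 and 64.6 in replicate 3. Psph and Mthfd2 lost the call without KO FBS replicate 1 (−0.64 and −0.63) or 3 (−0.98 and −0.97) or WT FBS replicate 2 (−0.84 and −0.97). Without WT FBS replicate 3 Psat1 (−0.65), Psph (−0.44) and Mthfd2 (−0.14) were not called. Without KO FBS replicate 2 all 9 enzymes were called, with Phgdh at −1.06, Shmt1 at −1.05, Shmt2 at −1.0 and Mthfd1 at −0.91. Without WT FBS replicate 1 Phgdh (−1.04), Shmt1 (−0.92) and Shmt2 (−0.93) were called. The shares of all genes called in these fits per ERCC count are not given here. Shmt1 was also called without WT paused replicate 1 (−0.77, edgeR adjusted p = 0.0413).

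Among paused cells the genotypes differed in both directions. On the relative scale 2 enzymes were higher and 3 lower in KO paused than in WT paused cells, and 51.8% of all genes were called in either direction, so the share of enzymes called was close to that of all genes. The KO paused and WT paused libraries did not overlap for any of the 9 enzymes, as for 69.1% of all genes. Aldh1l2 (13.6 ± 1.41 CPM in KO paused and 4.63 ± 1.07 CPM in WT paused cells) was higher by 1.56 ± 0.29 on the log2 scale (edgeR adjusted p = 0.000729). Psat1 was higher by 0.70 ± 0.23 (edgeR adjusted p = 0.0218), but did not pass without 1 of WT paused replicates 1 (0.64) and 2 (0.71) and KO paused replicates 1 and 3 (0.69 for both). Mthfd1 (−0.77 ± 0.11, edgeR adjusted p = 0.000105), Shmt1 (−0.56 ± 0.11, adjusted p = 0.00117) and Mthfd1l (−0.37 ± 0.13, adjusted p = 0.0267) were lower. The call of Mthfd1l was lost without any 1 of the paused libraries (−0.38 to −0.34, edgeR adjusted p = 0.0533 to 0.0868).

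The other 4 did not pass between KO paused and WT paused cells, at 1.00 ± 0.41 for Mthfd2 (edgeR adjusted p = 0.0577), 0.69 ± 0.32 for Psph (adjusted p = 0.0893), 0.30 ± 0.25 for Phgdh and −0.31 ± 0.21 for Shmt2. All 4 passed without WT FBS replicate 1, as did the other 5 enzymes (65.2% of all genes called in either direction), and Mthfd2 also without replicate 3 (1.00, edgeR adjusted p = 0.0138). Neither library is in this comparison. Both can enter it through the shared spread, the filter, the scaling and the adjustment of p, which were not tested apart. Per ERCC count the typical gene was higher in KO paused cells by 0.39. On that scale 4 enzymes were higher in KO paused cells (27.1% of all genes higher), namely Aldh1l2 (1.97 ± 0.35), Mthfd2 (1.42 ± 0.33), Psph (1.09 ± 0.35) and Psat1 (1.07 ± 0.32), with edgeR adjusted p of 4.43e-07 to 0.00735. Psat1 (0.86) and Psph (0.94) lost the call without WT paused replicate 1, and Phgdh, at 0.66 ± 0.32, passed without KO FBS replicate 1 or 2. Shmt1, Mthfd1 and Mthfd1l, lower on the relative scale, stood at −0.18, −0.40 and 0.01 per ERCC count and were not called, and Shmt2 changed sign to 0.05.

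**Figure D3:**
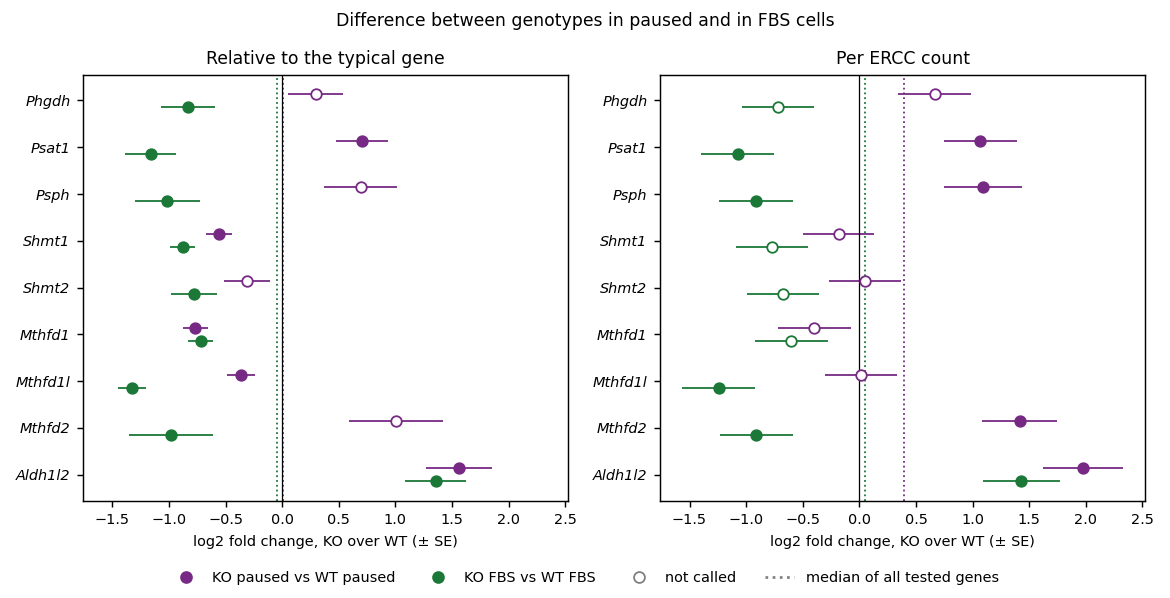
Log2 fold change of KO over WT cells (x axis, points with SE bars) for each enzyme, in paused (purple) and in FBS cells (green), relative to the typical gene on the left and per ERCC count on the right. Filled points passed the test, and dotted lines mark the median of all tested genes. Phgdh, Psat1, Psph and Mthfd2 lie above 0 between paused cells and below 0 between FBS cells, and Aldh1l2 lies above 0 in both.

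Levels can be set against each other between genes only roughly when divided by the exon length that GENCODE annotates, as CPM per kilobase. This length joins the exons of all annotated transcripts of a gene. Which transcripts these cells made was not determined, and the annotation used for counting is not given. In WT FBS cells Psat1 (77.5 ± 31.6), Mthfd1 (73.8 ± 9.22), Phgdh (53.9 ± 22.4), Shmt2 (47.4 ± 17.4), Shmt1 (36.0 ± 6.01), Mthfd1l (33.7 ± 7.58) and Mthfd2 (25.7 ± 16.8) followed each other within the spread of neighbours (SD, n = 3 each). Psph (6.23 ± 3.13) and Aldh1l2 (0.81 ± 0.40) stood well below. In WT paused cells Mthfd1 (71.0 ± 7.46) led by more than the spread, followed by Shmt1 (30.6 ± 1.30), Shmt2 (24.5 ± 2.47) and Mthfd1l (17.9 ± 0.37). Phgdh (13.2 ± 0.46) and Psat1 (12.1 ± 1.00) came next and overlapped, above Mthfd2 (2.60 ± 0.71), Psph (1.29 ± 0.06) and Aldh1l2 (0.62 ± 0.14). KO FBS cells had Mthfd1 (44.8 ± 3.49) first, then Psat1 (34.7 ± 2.36), Phgdh (30.4 ± 2.73) and Shmt2 (27.7 ± 3.07), which followed each other within their spread. Mthfd1l (13.5 ± 0.24) and Mthfd2 (13.1 ± 1.77) did not differ beyond it either. In KO paused cells Shmt1 (20.8 ± 0.87), Shmt2 (19.8 ± 0.79) and Psat1 (19.8 ± 0.64) lay together beneath Mthfd1 (41.8 ± 2.34).

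The balance of mitochondrial and cytosolic partners was read as a ratio of counts within each library, which no scaling between libraries can move. The ratio of Shmt2 to Shmt1 counts was 0.730 to 0.780 in KO paused and 1.06 to 1.19 in KO FBS libraries, and 0.597 to 0.672 in WT paused and 0.828 to 1.32 in WT FBS libraries. Paused libraries lay below FBS libraries in both genotypes. The log2 ratio changed by −0.57 ± 0.06 in KO and −0.67 ± 0.20 in WT cells (SE; exact two-sided permutation p = 0.1 each, the smallest that 3 against 3 samples allow, adjusted p = 0.143 over 10 comparisons). The difference between genotypes of 0.10 ± 0.21 did not pass (exact permutation p = 0.685, adjusted p = 0.761). Here and below, the permutation for this difference exchanged genotypes within paused and within FBS samples. Its p therefore takes the genotypes as equal in both conditions, not only their pausing effects.

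For Mthfd2 over Mthfd1 the ratio was 0.0854 to 0.112 in KO paused and 0.218 to 0.247 in KO FBS libraries, and 0.0241 to 0.0342 in WT paused and 0.125 to 0.436 in WT FBS libraries. It was lower in every paused library than in any FBS library, and higher in every KO paused than in any WT paused library. The log2 ratio changed by −1.21 ± 0.13 in KO and −3.05 ± 0.54 in WT cells, and between KO paused and WT paused cells it differed by 1.81 ± 0.19 (exact permutation p = 0.1 and adjusted p = 0.143 each). Between KO FBS and WT FBS cells it was −0.03 ± 0.52 (exact permutation p = 0.9, adjusted p = 0.9). The log2 changes with pausing differed between KO and WT by 1.84 ± 0.55 (exact permutation p = 0.045 over 400 arrangements, adjusted p = 0.143), and 1.39 without WT FBS replicate 3. As the paused groups differed by 1.81, this p is not one for the difference of pausing effects alone.

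**Figure D4:**
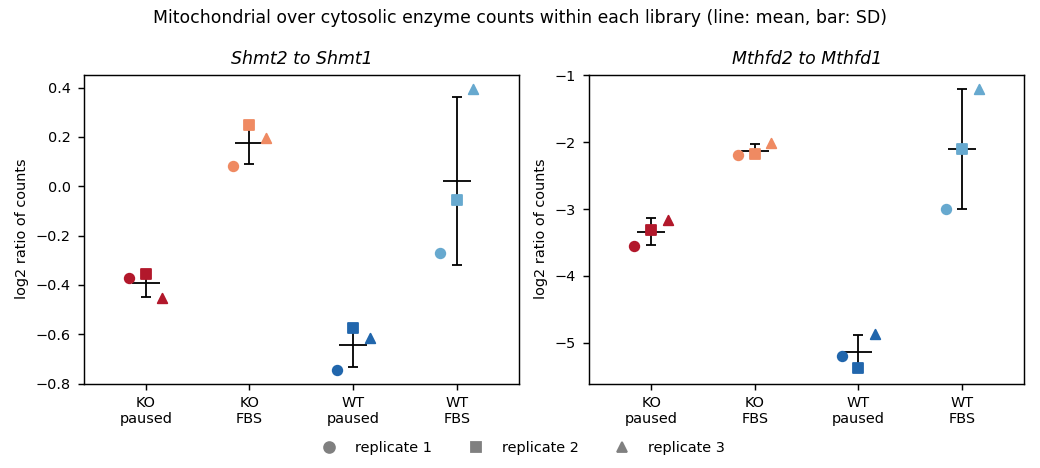
Log2 ratio of the counts of Shmt2 to Shmt1 (left) and of Mthfd2 to Mthfd1 (right) in each library, with means and SD (n = 3), for KO paused, KO FBS, WT paused and WT FBS from left to right. Paused libraries lie below the FBS libraries of their genotype in both plots, and the y axes do not start at 0.

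Genes linked to these enzymes were described in 5 lists. De novo purine synthesis, which uses formyl-folate, had 8 of 13 genes lower in KO paused cells and 10 of 13 lower in WT paused cells, and the others did not pass (19.4% of all genes lower in KO and 20.2% in WT). Its median log2 change was −0.40 in KO and −0.60 in WT cells, beside 0.03 and −0.02 over all genes. Per ERCC count 11 of the 13 fell in KO (45.7% of all genes lower) and all 13 in WT paused cells (68.8%). Prps2 (−1.40 ± 0.20 in KO and −1.70 ± 0.21 in WT), which makes the ribose donor, and Gmps (−0.37 ± 0.09 and −0.66 ± 0.09), which makes GMP, were among them. The median difference of both effects was 0.29, beside 0.09 over all genes. It was called for 0 of the 13 by edgeR on either scale and for 0 by DESeq2 on the relative scale, where 2 had an unadjusted edgeR p under 0.05, and for 8 by edgeR without WT FBS replicate 1 (24.3% of all genes positive).

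The amino acid response list holds regulators and targets of the response to a shortage of amino acids, outside the 9 enzymes. Its median was lower in WT than in KO cells. In KO paused cells 4 of 12 genes fell (19.4% of all genes lower), 1 rose (23.3% higher) and 7 did not pass, with a median of −0.29. In WT paused cells 10 of 12 fell (20.2% of all genes lower) and the other 2 did not pass, with a median of −1.12. Per ERCC count 9 of the 12 fell in KO (45.7% of all genes lower) and all 12 in WT paused cells (68.8%), and the difference was positive for 4 (3.04%). Atf4 stood at 88.5 ± 7.01 CPM in KO paused and 92.7 ± 13.1 CPM in KO FBS cells (log2 −0.07 ± 0.15, edgeR adjusted p = 0.741), and at 114 ± 9.05 CPM in WT paused and 213 ± 46.6 CPM in WT FBS cells (−0.90 ± 0.15, adjusted p = 0.000732). Its difference of 0.83 ± 0.21 passed on the relative scale (edgeR adjusted p = 0.0166) but not per ERCC count (1.10 ± 0.45, adjusted p = 0.161). The difference passed for 5 of the 12 genes in all on the relative scale (9.61% of all genes positive), and for 9 without WT FBS replicate 1 (24.3%). Among the 5 was Atf5 (1.18 ± 0.19, edgeR adjusted p = 0.00144). Atf5, a factor related to Atf4, was the gene that rose in KO paused cells (0.55 ± 0.14, and −0.23 per ERCC count, not called) and it fell in WT paused cells (−0.63 ± 0.13). Asns, asparagine synthetase, fell in both (−0.50 ± 0.10 in KO and −0.69 ± 0.10 in WT). Between genotypes in FBS, Atf4 was lower in KO cells by 1.20 ± 0.15 in log2 terms (edgeR adjusted p = 2.31e-05) and Asns by 0.58 ± 0.10 (adjusted p = 0.000309).

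Of 11 tested genes of the other folate cycle and glycine cleavage list, 2 fell, 1 rose and 8 did not pass in KO paused cells, a share of lower calls near the 19.4% of all genes. In WT paused cells 4 fell and 7 did not pass (20.2% of all genes lower), with medians of −0.31 in KO and −0.28 in WT cells. Gldc, the decarboxylase that splits glycine, fell in both genotypes, to 80.1 ± 0.67 CPM in KO paused against 155 ± 11.3 in KO FBS cells (−0.95 ± 0.08), and to 24.1 ± 0.97 CPM in WT paused against 51.8 ± 2.68 in WT FBS cells (−1.10 ± 0.08). It was higher in KO than in WT cells both in FBS (1.58 ± 0.08, edgeR adjusted p = 2.3e-08) and paused (1.73 ± 0.08, adjusted p = 1.61e-08). Gcsh of the glycine cleavage system fell in both genotypes (−0.57 ± 0.20 in KO and −0.66 ± 0.21 in WT). Without WT FBS replicate 1 there were 7 lower (29.9% of all genes) and 2 higher (29.9%) in KO and 6 lower (31.1%) in WT cells, and 4 positive differences (24.3%) where 1 was called with all libraries.

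Of 12 genes of folate and serine transport 3 rose (23.3% of all genes higher), 1 fell (19.4% lower) and 8 did not pass in KO paused cells. In WT paused cells 3 rose (18.0% of all genes higher), 2 fell (20.2% lower) and 7 did not pass. There were, without WT FBS replicate 1, 3 lower in KO (29.9% of all genes) and 8 lower in WT cells (31.1%), and 6 positive differences (24.3%) where 1 was called with all libraries. The medians were 0.10 in KO and −0.38 in WT cells. The folate receptor genes Folr1 (0.87 ± 0.15 in KO and 0.63 ± 0.16 in WT) and Folr2 (0.89 ± 0.25 and 1.79 ± 0.23) rose in both genotypes relative to the typical gene, but per ERCC count neither was called in either and Folr1 was at −0.38 in WT cells. Slc1a4, a carrier of serine and alanine, fell in WT paused cells (−1.59 ± 0.39), and Slc46a1, a proton-coupled folate carrier, fell there too (−0.69 ± 0.14) and had a positive difference (0.79 ± 0.18, edgeR adjusted p = 0.011, and 1.09, not called, per ERCC count).

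In the methionine cycle and transsulfuration 4 of 11 tested genes fell (19.4% of all genes lower), 1 rose (23.3% higher) and 6 did not pass in KO paused cells, and 3 fell (20.2%) and 8 did not pass in WT paused cells. Without WT FBS replicate 1 there were 5 lower and 4 higher in KO (29.9% of all genes each way), 7 lower (31.1%) and 2 higher (27.8%) in WT cells, and 4 positive differences (24.3%) where 1 was called with all libraries. The medians were −0.26 in KO and −0.13 in WT cells. Ahcy, which clears S-adenosylhomocysteine, fell in both (−0.68 ± 0.18 in KO and −1.28 ± 0.19 in WT). Its relative Ahcyl1 moved in opposite directions in KO and WT cells on the relative scale. It stood at 168 ± 6.23 CPM in KO paused and 81.6 ± 2.23 CPM in KO FBS cells (1.04 ± 0.08, edgeR adjusted p = 1.13e-06), and at 74.8 ± 1.57 CPM in WT paused and 98.5 ± 7.58 CPM in WT FBS cells (−0.40 ± 0.08, adjusted p = 0.00207), with a difference of 1.44 ± 0.11 (adjusted p = 1.24e-05). Per ERCC count its rise in KO cells was not called (0.30 ± 0.32), and the difference was 1.72 ± 0.45 (edgeR adjusted p = 0.00666).

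**Figure D5:**
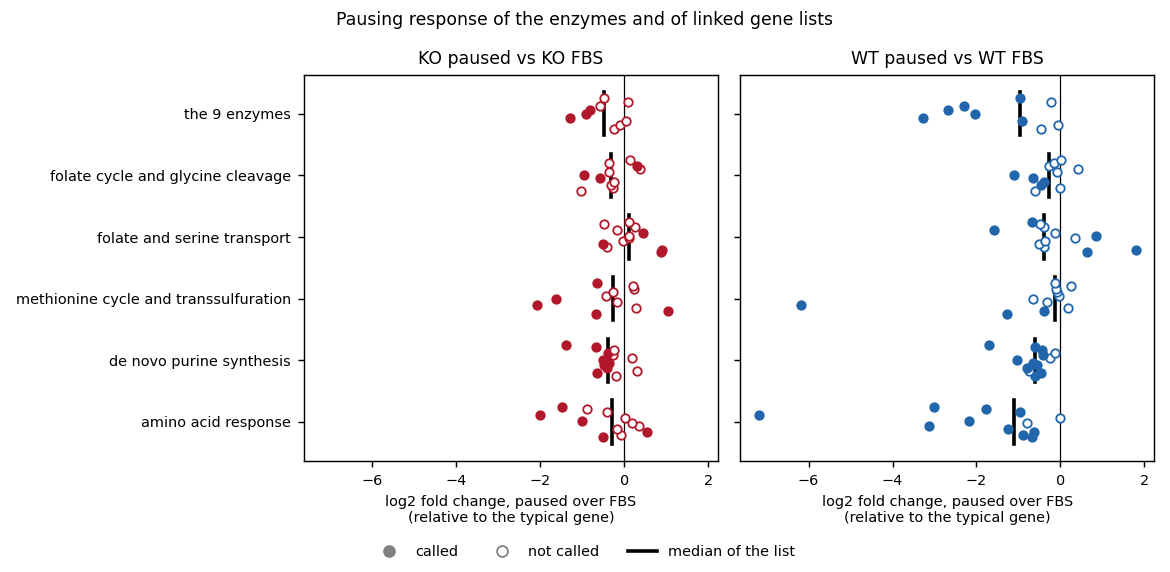
Log2 fold change of paused over FBS cells (x axis, relative to the typical gene) for each gene of the 9 enzymes and of the 5 linked lists, in KO cells on the left and WT cells on the right. Filled points passed the test and black bars mark the median of each list. The medians of the 9 enzymes, purine synthesis and the amino acid response are −0.49, −0.40 and −0.29 in KO cells, against −0.95, −0.60 and −1.12 in WT cells.

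The levels of Phgdh, Psat1, Psph and Shmt2 tracked the mean of the 9 enzymes across the 12 libraries (Pearson r of 0.93 to 0.97 on log2 CPM), those of Mthfd2 (0.89) and Mthfd1l (0.83) came next, those of Shmt1 and Mthfd1 tracked it less (0.61 and 0.52) and that of Aldh1l2 not (−0.09). Each enzyme is itself part of this mean, which adds to its r, so its r cannot be set against those of other genes. Of 9940 other genes, those most like this mean over the 12 libraries were Wars (r = 0.98), Hspa9, Sf3a3, Xpot, Sept11, Mars, Cdkn1c and Cox7b (r = 0.97). Wars and Mars encode aminoacyl-tRNA synthetases, Xpot a tRNA exporter and Hspa9 the mitochondrial Hsp70. These values describe 4 groups that share their libraries, and carry no test. The medians of the 49 nearest tested genes on the chromosome of each enzyme lay between −0.36 and 0.32 in every comparison on the relative scale, and those of Phgdh (−0.36) and Shmt2 (−0.35) had the lowest between KO FBS and WT FBS cells.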

How the data were processed

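Polyadenylated RNA was sequenced from 12 samples of E14 cells, 3 in each of 4 groups taken from the labels, per the labels' protocols with 2 µl of ERCC Mix 1 diluted 1 in 100 added to 10 µl of RNA from 200000 cells. As the spike was added after extraction, losses before that step are not corrected. Raw read counts by gene symbol, 92 of the rows being ERCC, were deposited and used here unaltered. The authors also deposited log2 values, described as normalized to cell number, which equalled the log2 of the count plus 0.5 and 1 constant per sample (3390 genes with at least 500 counts, largest SD 6.59e-10). These log2 values served only as an alternative. The submitters' processing notes list mm10 and the tools edgeR 3.32.1, Subread 1.5.0, featureCounts and Trim Galore 0.4.0. Not given in the sources used here are aligner, annotation and strandedness.

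Counts were fitted with edgeR 4.0.16 (R 4.3.3) as 4 group means over all 12 samples with robust quasi-likelihood dispersions, after the default filter (minimum count 10, total 15). Library size was the gene total times TMM over genes, or the ERCC total times TMM over the ERCC rows. P-values were adjusted over 15281 genes by Benjamini and Hochberg with a threshold of 0.05, and log2 values are given ± SE. Count ratios used a pseudocount of 0.5 and exact permutation tests, which for the difference of pausing effects exchanged genotypes within each condition. Alternatives used DESeq2 1.42.0, limma 3.58.1, other scalings, no filter, a replicate block and leaving out each library. The edgeR fit was tested on simulated data only for pausing in WT cells on the relative scale, with the same dispersion for all genes. The ERCC scale, the difference of pausing effects and the ratios were not simulated. Counts per library limit precision by counting error, and Psph and Aldh1l2 had the fewest counts, at least 34 per library. Gene spans and exon lengths are from GENCODE vM21 on GRCm38 (mm10). The 9 enzymes, the linked lists and the tests were chosen with earlier results of these data known. Named genes outside the 9 are called members of the lists with low p or against their list, and the 8 genes most like the enzymes' mean among those with at least 5 CPM. The named genes of each list are a choice among those the rule allows, made after their values were seen, and 1 folate cycle gene (Ftcd) did not pass the filter. Amd1 of the methionine list was not tested. A single gene of the linked lists, counted with the rest, is not reported here by name.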

Additional observations from a re-analysis of the deposited data

Results flagged for a closer look

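The pausing effect differed between genotypes, by the test of the difference itself, for 5 enzymes on the relative scale (9.61% of all genes positive). KO minus WT, the log2 changes with pausing differed by 1.13 for Phgdh, 1.86 for Psat1, 1.71 for Psph, 0.96 for Mthfd1l and 1.99 for Mthfd2. Per ERCC count it differed for 4 of them (3.04% of all genes positive). These were Phgdh at 1.39, Psat1 at 2.14, Psph at 2.00 and Mthfd2 at 2.32. Each of these values includes WT FBS replicate 1, the lowest of its group, and replicate 3, the highest of its group, for all of these genes. Of the 12 fits that each left out 1 library, the relative call was lost in 11 for Phgdh and in 6 for Mthfd2. Per ERCC count the call was lost in 10 for Phgdh and in 1 each for Psph and Mthfd2. Groups of 3 samples are too small for a test of single outlying samples.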

How the results depend on the processing

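Over 1566 values of the 9 enzymes under alternative settings no called value changed sign, and 1434 kept their direction and their side of the threshold, apart from uncalled values near 0. The number of enzymes called moved by over 1.5 times in these cases. With no filter on low counts the difference of pausing effects was called for 3 enzymes on the relative scale. With only the groups compared in the fit, 5 were called for pausing in KO cells and 9 between KO paused and WT paused cells. DESeq2 with ERCC size factors called 2 for the difference per ERCC count. The cause of these shifts was not tested, but the fit of only the groups compared leaves out the WT FBS libraries. The main fit did not pair samples by replicate number. Same-numbered samples correlated at −0.02 to 0.27, with 10 of 18 over 0.1. Of the 18, 15 were best with their own number, a hint from the data only that same-numbered samples are related. A replicate block gave 9 enzymes called between KO FBS and WT FBS cells per ERCC count, beside 4 lower and 1 higher in the main fit. Shares of all genes called under these settings are not given here. Whether the enzymes moved more than other genes between settings therefore cannot be read from these counts.

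Leaving out 1 library at a time gave, on the relative scale, 2 to 5 enzymes called for pausing in KO, 6 to 8 for pausing in WT, 3 to 7 for the difference, 6 to 9 between KO FBS and WT FBS and 3 to 9 between KO paused and WT paused cells. Per ERCC count the ranges were 5 to 9, 9 to 9, 1 to 5, 2 to 9 and 2 to 5 in these comparisons. The share of all genes called is given only for the relative fit without WT FBS replicate 1. There it rose from 9.61% to 24.3% for positive differences and from 20.2% to 31.1% for lower genes in WT paused cells. The ranges therefore do not set the enzymes against other genes. The log2 ratio of Shmt2 to Shmt1 ranged from −0.62 to −0.53 for pausing in KO, −0.81 to −0.48 for pausing in WT, −0.09 to 0.25 for the difference, 0.01 to 0.34 between FBS groups and 0.20 to 0.29 between paused groups. For Mthfd2 to Mthfd1 the ranges were −1.30 to −1.10, −3.49 to −2.59, 1.39 to 2.28, −0.48 to 0.42 and 1.69 to 1.95. The difference for Shmt2 to Shmt1 changed sign without WT FBS replicate 3 (−0.089), and Mthfd2 to Mthfd1 between FBS groups changed sign without KO FBS replicate 1 (0.0045) or WT FBS replicate 3 (0.42).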
